A study of Mus musculus with 2 samples.

Results

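Interferon-stimulated genes are the targets that a cell switches on when an interferon binds its receptor, and 39 of the best known of them are described here across the cell types of the mouse dorsal root ganglion. The members were given as a list of gene symbols, and all 39 were present among the 31253 genes of the deposited tables. The tissue was lumbar (L4-5) dorsal root ganglia of 8-week-old wild-type mice treated with acetone, ether and water (AEW), a treatment that dries the skin and is used as a model of itch. There were 2 droplet libraries, AEW replicate 1 and AEW replicate 2, and no untreated group, so every comparison is between cell types and none bears on the treatment. The labels do not say how many animals each library holds, and p-values measure only the spread between these samples, which may be technical.

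Type I interferons bind the receptor pair Ifnar1 and Ifnar2, and interferon gamma binds Ifngr1 and Ifngr2. The kinases Jak1, Jak2 and Tyk2 then pass the signal on by phosphorylation. A complex that holds Stat2 and Irf9 binds interferon-stimulated response elements in the promoters of target genes, and many targets of interferon gamma carry gamma-activated sites. The targets include proteins that bind foreign RNA (the Ifit and Oas families), the ubiquitin-like Isg15, GTPases that act against intracellular pathogens (the Gbp and Irg families), membrane proteins that block viral entry or release, and the chemokine Cxcl10. In ganglia, satellite glia wrap the cell bodies of sensory neurons, Schwann cells wrap their axons, and endothelial and mural cells form the vessels.

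Promoter sequences of 6 members are shown because their classical response elements lie close to the start of transcription. They run from 160 bases to 1 base before the RefSeq start, in build GRCm38.p6, on the gene's strand, 5′ to 3′, and the capitals mark every match to the core of the response element, GAAA followed by any NN and a second GAAA, on either strand. A match on the opposite strand reads TTTC, any NN and TTTC, and overlapping matches form 1 run of capitals. Ifit1, Ifit3, Isg15 and Rsad2 were among the 10 genes used below to find cells with several targets, and Gbp2 and Irgm1 are GTPases described for their differences between libraries or glia.
Ifit1 (chr19:34640729-34640888, plus strand): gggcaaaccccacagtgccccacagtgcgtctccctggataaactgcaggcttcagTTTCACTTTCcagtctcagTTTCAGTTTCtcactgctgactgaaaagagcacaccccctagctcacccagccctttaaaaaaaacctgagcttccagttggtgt
Ifit3 (chr19:34583369-34583528, plus strand): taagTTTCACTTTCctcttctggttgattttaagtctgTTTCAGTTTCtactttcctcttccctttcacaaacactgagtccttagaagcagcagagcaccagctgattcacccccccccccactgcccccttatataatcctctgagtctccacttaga
Isg15 (chr4:156200819-156200978, minus strand): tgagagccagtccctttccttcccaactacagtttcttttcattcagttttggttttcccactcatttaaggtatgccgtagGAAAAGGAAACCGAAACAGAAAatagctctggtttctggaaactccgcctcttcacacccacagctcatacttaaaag
Rsad2 (chr12:26456453-26456612, minus strand): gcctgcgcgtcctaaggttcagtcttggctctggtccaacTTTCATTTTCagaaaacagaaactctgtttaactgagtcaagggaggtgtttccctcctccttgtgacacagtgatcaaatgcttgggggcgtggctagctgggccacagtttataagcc
Gbp2 (chr3:142620503-142620662, plus strand): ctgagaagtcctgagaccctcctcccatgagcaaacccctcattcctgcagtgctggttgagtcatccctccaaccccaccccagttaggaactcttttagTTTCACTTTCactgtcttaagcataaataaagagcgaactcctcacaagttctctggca
Irgm1 (chr11:48871421-48871580, minus strand): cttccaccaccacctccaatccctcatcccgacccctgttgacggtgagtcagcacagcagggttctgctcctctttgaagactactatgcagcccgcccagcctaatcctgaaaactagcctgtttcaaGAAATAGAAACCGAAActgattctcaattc
Ifit1 and Ifit3 each held 2 separate matches, Isg15 held 3 overlapping ones, Irgm1 2 overlapping ones, and Rsad2 and Gbp2 1 each.

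Windows of 300 bases, from 250 before to 50 after the start, were given for 31 of the 39 members. The response element core, searched on both strands, was found in 18 of these 31 members (58.1%), against 3.99% of the 27025 genes with a window. TTCNNNGAA, the palindrome of the gamma-activated site, was found in 8 of 31 members (25.8%), against 9.55% of genes. The second motif can overlap the first, and a match is a run of letters and not a measured binding site.

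The 4 Ifit genes of the list lie side by side on mouse chromosome 19, and Gbp2, Gbp3 and Gbp7 on chromosome 3. Rsad2 and Cmpk2 are neighbours on chromosome 12, on opposite strands. Chromosome 11 held 7 members and chromosome 5 held 6. Ifit3 and Ifit3b are close copies of each other, so reads that fit both can be lost or split, and their levels are uncertain. In the GENCODE annotation, Ifi47, Igtp and Irf9 overlap another gene on the same strand (Olfr56, Irgm2 and Rnf31), and their counts may be affected.

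After filters, 7774 and 10270 cells remained in replicates 1 and 2, with medians of 4991 and 4102.5 unique molecular identifiers (UMIs, each marking 1 captured RNA molecule). Cells were assigned to classes by marker genes that include no member, which left 4692 and 5374 cells in a class and the others unassigned. Among the 10 genes with the largest fold over the other assigned cells, a class's own markers numbered from 1 (neurons) to 6 (neutrophils). Cells were chosen by these markers, so this does not test the classes. The labels give the cell type as neuron, although other classes were found. Levels are given as UMIs per 10000 UMIs of the class in that library, always with replicate 1 first and replicate 2 second. Markers of one class appeared in others at a low level: the 10 neuron markers summed to 135 and 138 in neurons and to 9.73 and 15.2 in endothelial cells, and the 7 endothelial markers to 103 and 89.7 in endothelial cells, 3.27 and 3.51 in mural cells and 0.160 and 0.417 in satellite glia. Median depth was 104206 and 45499.5 UMIs in neurons, against 10711 and 7201 in endothelial cells and 8462 and 7336.5 in satellite glia. Summed UMIs were 104386 and 102438 in B cells, 185138 and 213770 in neutrophils, and 461382 and 216790 in non-myelinating Schwann cells. Low levels in these classes therefore rest on very few UMIs. The libraries shared 24 cell barcodes.

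Interferon-stimulated genes made up a larger part of the RNA of endothelial cells than of any other class tested. The 39 members together made up 122 and 183 of every 10000 UMIs in endothelial cells, in replicates 1 and 2. The next highest sums were 74.9 and 23.6 in macrophages, 55.7 and 60.5 in non-myelinating Schwann cells, 44.9 and 23.6 in neutrophils, 40.4 and 37.6 in fibroblasts, 27.1 and 37.1 in mural cells, and 29.9 and 30.1 in satellite glia. Sums were 11.4 and 14.4 in B cells, 11.4 and 11.9 in erythroid cells, 7.73 and 12.1 in myelinating Schwann cells, and 9.69 and 9.55 in neurons. The endothelial values lay above those of every other class in both libraries, and the 2 macrophage values lay on either side of those of fibroblasts, satellite glia and mural cells. Without Ifitm3, which gave a large part of the sum in many classes, the sums were 86.6 and 140 in endothelial cells, 53.9 and 17.5 in macrophages, 20.0 and 21.3 in satellite glia and 9.40 and 9.12 in neurons. By mean level, 29 of the 39 members were highest in endothelial cells, 4 in macrophages (Oas1a, Oas2, Zbp1 and Dhx58), 2 in neutrophils (Oas3 and Samd9l), 2 in satellite glia (Ifi27 and Cxcl10), 1 in non-myelinating Schwann cells (Gbp2) and 1 in B cells (Trim25).

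**Figure D1:**
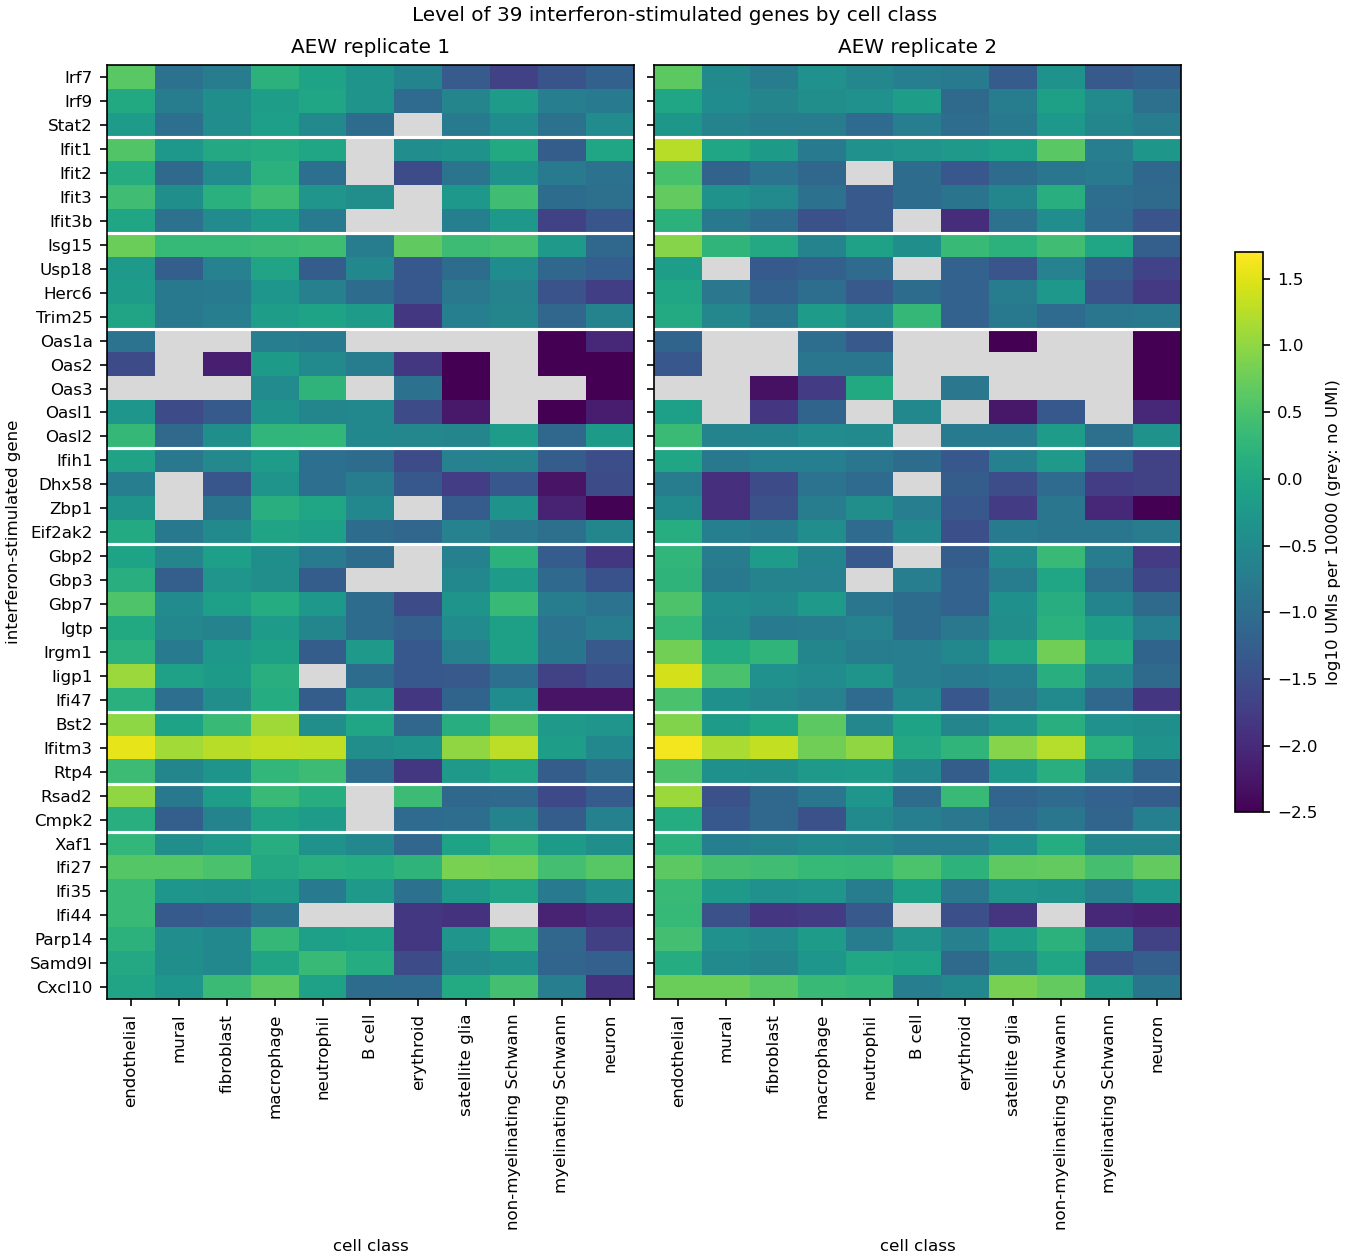
Each cell of the map gives the log10 level (UMIs per 10000) of 1 gene, in rows grouped by role, in 1 class, in columns, with AEW replicate 1 on the left and AEW replicate 2 on the right; grey marks no UMI, and levels below the colour scale take its darkest colour. The endothelial column is the brightest for 29 of 39 genes by mean level, and the macrophage column is brighter in replicate 1 than in replicate 2.

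The 3 transcription factors of the list were highest in endothelial cells by mean level. Irf7, which amplifies interferon production, stood at 4.29 and 4.45 in endothelial cells, 1.58 and 0.423 in macrophages, and 0.864 and 0.281 in neutrophils. It was at 0.119 and 0.309 in mural cells, 0.191 and 0.187 in fibroblasts, 0.479 and 0.195 in B cells, 0.244 and 0.166 in erythroid cells, 0.0507 and 0.0527 in satellite glia, 0.0217 and 0.461 in non-myelinating Schwann cells, 0.0397 and 0.0465 in myelinating Schwann cells, and 0.0636 and 0.0646 in neurons. The endothelial libraries agreed closely, and no other class reached them. Irf9, a DNA-binding partner of Stat2, was at 1.11 and 0.980 in endothelial cells, 0.672 and 0.784 in non-myelinating Schwann cells, 0.725 and 0.379 in macrophages, 0.261 and 0.185 in satellite glia, and 0.165 and 0.113 in neurons. Stat2 was at 0.660 and 0.521 in endothelial cells, 0.736 and 0.194 in macrophages, 0.347 and 0.554 in non-myelinating Schwann cells, 0.175 and 0.159 in satellite glia, and 0.331 and 0.187 in neurons, with no order that held in both libraries among the first 3.

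The Ifit family, which binds viral RNA, showed both the endothelial level and a difference between libraries. Ifit1 was at 3.56 and 17.6 in endothelial cells, 1.13 and 4.15 in non-myelinating Schwann cells, 1.24 and 0.176 in macrophages, 1.09 and 0.610 in fibroblasts, 0.972 and 0.421 in neutrophils, and 0.942 and 0.520 in neurons. In the other classes it was at 0.557 and 0.938 in mural cells, 0.442 and 0.755 in satellite glia, 0.366 and 0.597 in erythroid cells, 0 and 0.488 in B cells, and 0.0556 and 0.195 in myelinating Schwann cells. Replicate 2 was thus the higher library in endothelial and non-myelinating Schwann cells, and replicate 1 in macrophages and neurons. Ifit2 was at 1.25 and 2.99 in endothelial cells, 1.52 and 0.0794 in macrophages, 0.433 and 0.138 in non-myelinating Schwann cells, 0.332 and 0.128 in fibroblasts, 0.128 and 0.0968 in satellite glia, and 0.161 and 0.167 in myelinating Schwann cells, and at 0.0896 and 0.0686 in mural cells, 0.108 and 0 in neutrophils, 0 and 0.0976 in B cells, 0.0305 and 0.0442 in erythroid cells, and 0.119 and 0.0832 in neurons. Ifit3 was at 2.61 and 4.95 in endothelial cells, 2.58 and 1.43 in non-myelinating Schwann cells, 2.47 and 0.115 in macrophages, 1.46 and 0.315 in fibroblasts, 0.555 and 0.267 in satellite glia, and 0.486 and 0.0468 in neutrophils, and at 0.398 and 0.446 in mural cells, 0.383 and 0.0976 in B cells, 0 and 0.133 in erythroid cells, 0.0979 and 0.102 in myelinating Schwann cells, and 0.114 and 0.0889 in neurons. Macrophages of replicate 1 exceeded the endothelial cells of that library for Ifit2 and came close to them for Ifit3, while those of replicate 2 stood below the satellite glia for both.

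Isg15, a ubiquitin-like protein attached to other proteins and also secreted, was at 5.73 and 8.57 in endothelial cells, 4.68 and 2.19 in erythroid cells, 2.80 and 2.54 in non-myelinating Schwann cells, 2.41 and 1.60 in satellite glia, 2.48 and 0.795 in neutrophils, and 2.28 and 0.238 in macrophages. In the others it was at 2.04 and 1.75 in mural cells, 2.04 and 1.08 in fibroblasts, 0.192 and 0.390 in B cells, 0.574 and 0.939 in myelinating Schwann cells, and 0.0816 and 0.0599 in neurons. Erythroid cells therefore held more Isg15 per 10000 UMIs than satellite glia in both libraries. Usp18, which removes Isg15 and restrains the receptor, was at 0.572 and 0.709 in endothelial cells, 0.881 and 0.0618 in macrophages, 0.347 and 0.231 in non-myelinating Schwann cells, 0.0958 and 0.0408 in satellite glia, and 0.0562 and 0.0225 in neurons. The ligases Herc6 and Trim25 were at 0.654 and 0.932 and at 0.881 and 1.17 in endothelial cells. Trim25 was at 0.671 and 1.95 in B cells, whose libraries lay on either side of the endothelial values.

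The oligoadenylate synthetase genes were split between vessels and myeloid cells. Oasl2 was at 1.95 and 2.27 in endothelial cells, 1.86 and 0.335 in macrophages, 1.89 and 0.327 in neutrophils, 0.629 and 0.646 in non-myelinating Schwann cells, 0.612 and 0.431 in neurons, and 0.389 and 0.246 in fibroblasts, and at 0.257 and 0.172 in satellite glia, 0.0896 and 0.240 in mural cells, 0.287 and 0 in B cells, 0.274 and 0.166 in erythroid cells, and 0.0794 and 0.112 in myelinating Schwann cells. Oas3, which makes the messenger that activates RNase L, was at 1.73 and 1.12 in neutrophils, 0.342 and 0.0176 in macrophages, and 0.122 and 0.144 in erythroid cells, and had no UMI in endothelial cells, mural cells, B cells or non-myelinating Schwann cells. Oas2 was at 0.611 and 0.141 in macrophages, 0.324 and 0.140 in neutrophils, and 0.0301 and 0.0439 in endothelial cells, and Oas1a at 0.197 and 0.106 in macrophages, 0.162 and 0.0468 in neutrophils, and 0.126 and 0.0706 in endothelial cells. Oasl1 was at 0.501 and 0.734 in endothelial cells, 0.435 and 0.0706 in macrophages, 0.287 and 0.293 in B cells, and 0.00620 and 0.00592 in satellite glia. Oas1a, Oas2 and Oas3 were at or below 0.01 in satellite glia, Schwann cells and neurons.

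Sensors and kinases were at modest levels. Ifih1, a cytoplasmic sensor of long double-stranded RNA, was at 0.846 and 0.919 in endothelial cells, 0.643 and 0.203 in macrophages, 0.238 and 0.600 in non-myelinating Schwann cells, 0.233 and 0.219 in satellite glia, and 0.0324 and 0.0217 in neurons. Dhx58, its regulator, was at 0.466 and 0.124 in macrophages, and 0.197 and 0.181 in endothelial cells. Zbp1, a sensor that can trigger necroptosis, was at 1.37 and 0.194 in macrophages, 0.918 and 0.374 in neutrophils, 0.471 and 0.317 in endothelial cells, and 0.433 and 0.138 in non-myelinating Schwann cells. Eif2ak2, the kinase PKR that stops translation, was at 1.18 and 1.29 in endothelial cells, 0.881 and 0.362 in macrophages, 0.271 and 0.188 in neurons, and 0.229 and 0.165 in satellite glia. For Zbp1 the endothelial values overlapped those of macrophages, since the macrophage libraries lay far apart.

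GTPases of the Gbp and Irg families, typical targets of interferon gamma, differed in where they were highest. The 7 of them summed to 21.6 and 45.4 in endothelial cells, 6.42 and 13.7 in non-myelinating Schwann cells, 6.09 and 2.10 in macrophages, 1.66 and 2.50 in satellite glia and 0.447 and 0.518 in neurons. Iigp1, on chromosome 18, was at 11.8 and 27.0 in endothelial cells, 0.816 and 3.12 in mural cells, 1.43 and 0.335 in macrophages, 0.108 and 1.34 in non-myelinating Schwann cells, 0.622 and 0.418 in fibroblasts, and 0.0468 and 0.203 in satellite glia, and at 0 and 0.468 in neutrophils, 0.0958 and 0.195 in B cells, 0.0457 and 0.166 in erythroid cells, 0.0212 and 0.279 in myelinating Schwann cells, and 0.0332 and 0.0901 in neurons. Irgm1, which regulates the other Irg proteins, was at 1.55 and 6.39 in endothelial cells, 0.780 and 6.13 in non-myelinating Schwann cells, 0.551 and 1.77 in fibroblasts, 0.214 and 0.882 in satellite glia, 0.179 and 1.24 in mural cells, and 0.135 and 1.24 in myelinating Schwann cells, and at 0.777 and 0.265 in macrophages, 0.0540 and 0.187 in neutrophils, 0.575 and 0.195 in B cells, 0.0457 and 0.287 in erythroid cells, and 0.0463 and 0.0711 in neurons. In replicate 2 the non-myelinating Schwann value was close to the endothelial one. Gbp7 was at 3.45 and 3.31 in endothelial cells, 2.17 and 1.29 in non-myelinating Schwann cells, 1.24 and 0.600 in macrophages, 0.742 and 0.310 in fibroblasts, and 0.473 and 0.398 in satellite glia, and at 0.338 and 0.366 in mural cells, 0.540 and 0.140 in neutrophils, 0.0958 and 0.0976 in B cells, 0.0305 and 0.0663 in erythroid cells, 0.191 and 0.251 in myelinating Schwann cells, and 0.128 and 0.0909 in neurons. Gbp2 was at 1.56 and 2.12 in non-myelinating Schwann cells, 0.876 and 1.82 in endothelial cells, 0.749 and 0.655 in fibroblasts, 0.383 and 0.247 in macrophages, 0.221 and 0.306 in satellite glia, and 0.259 and 0.183 in mural cells, and at 0.162 and 0.0468 in neutrophils, 0.0958 and 0 in B cells, 0 and 0.0553 in erythroid cells, 0.0529 and 0.186 in myelinating Schwann cells, and 0.0150 and 0.0174 in neurons, and its endothelial and non-myelinating Schwann values overlapped. Ifi47 was at 1.45 and 3.07 in endothelial cells, 1.25 and 0.229 in macrophages, 0.109 and 0.400 in mural cells, 0.347 and 0.323 in non-myelinating Schwann cells, 0.374 and 0.295 in fibroblasts, 0.575 and 0.293 in B cells, and 0.0710 and 0.145 in satellite glia, and at 0.0540 and 0.0936 in neutrophils, 0.0152 and 0.0442 in erythroid cells, 0.00529 and 0.0836 in myelinating Schwann cells, and 0.00521 and 0.0145 in neurons. Gbp3 and Igtp were highest in endothelial cells, at 1.38 and 1.73 and at 1.12 and 2.08.

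Of the 3 membrane factors, Ifitm3 gave the most UMIs in endothelial cells, glia and fibroblasts. It blocks fusion of viruses in endosomes and was at 35.4 and 43.0 in endothelial cells, 17.9 and 20.4 in fibroblasts, 19.1 and 16.8 in non-myelinating Schwann cells, 20.9 and 6.16 in macrophages, 19.7 and 10.1 in neutrophils, 13.3 and 14.7 in mural cells, and 9.90 and 8.76 in satellite glia. It was low at 0.383 and 1.07 in B cells, 0.457 and 1.77 in erythroid cells, 0.709 and 1.45 in myelinating Schwann cells, and 0.286 and 0.431 in neurons. Bst2 (tetherin), which holds budding viruses at the cell surface, was at 9.77 and 7.90 in endothelial cells, 12.6 and 4.31 in macrophages, 3.60 and 1.43 in non-myelinating Schwann cells, 2.16 and 1.03 in fibroblasts, and 1.32 and 0.497 in satellite glia, and at 0.866 and 0.641 in mural cells, 0.378 and 0.281 in neutrophils, 0.958 and 0.879 in B cells, 0.0762 and 0.254 in erythroid cells, 0.580 and 0.418 in myelinating Schwann cells, and 0.484 and 0.396 in neurons. Macrophages of replicate 1 exceeded the endothelial cells of both libraries, and macrophages of replicate 2 stood below both. Rtp4 was at 2.41 and 3.38 in endothelial cells, 2.38 and 0.655 in neutrophils, 1.89 and 0.582 in macrophages, 0.910 and 1.34 in non-myelinating Schwann cells, 0.574 and 0.544 in satellite glia, and 0.480 and 0.389 in fibroblasts, and at 0.269 and 0.412 in mural cells, 0.0958 and 0.293 in B cells, 0.0152 and 0.0553 in erythroid cells, 0.0556 and 0.260 in myelinating Schwann cells, and 0.104 and 0.0740 in neurons.

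Rsad2 (viperin), whose product ends the chains of viral RNA polymerases, was high in endothelial cells, and erythroid cells came next. It stood at 10.2 and 11.7 in endothelial cells, 2.44 and 2.19 in erythroid cells, 2.12 and 0.141 in macrophages, and 1.30 and 0.515 in neutrophils, and at 0.159 and 0.0343 in mural cells, 0.685 and 0.0837 in fibroblasts, 0.0823 and 0.0731 in satellite glia, 0.0867 and 0.0923 in non-myelinating Schwann cells, 0.0265 and 0.0650 in myelinating Schwann cells, 0 and 0.0976 in B cells, and 0.0537 and 0.0550 in neurons. Its neighbour Cmpk2, a nucleotide kinase, was at 1.35 and 1.28 in endothelial cells, 0.819 and 0.0353 in macrophages, 0.648 and 0.327 in neutrophils, 0.104 and 0.0941 in satellite glia, and 0.218 and 0.203 in neurons. The summed endothelial markers stood in mural cells at 3.18% and 3.92% of their endothelial level, and in neurons at 0.648% and 1.08%. Each member was likewise taken relative to its own endothelial level, and Rsad2 in B cells rested on very few UMIs. Rsad2 in mural cells, myelinating Schwann cells, B cells and neurons was then at most 2 times these markers in both libraries. The same was true in mural cells of Irf7, Ifi44, Oasl1, Oas1a, Oas2, Cmpk2, Zbp1 and Dhx58, where Oas1a and Oas2 had 0 UMIs in both libraries, and in neurons of Ifitm3, Ifi44, Ifi47, Iigp1, Parp14 and Zbp1. It held for 0 members in satellite glia and 0 in macrophages.

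Ifi44 was nearly confined to endothelial cells among the classes measured, at 2.14 and 2.03 in endothelial cells, 0.124 and 0.0176 in macrophages, 0.0498 and 0.0343 in mural cells, 0.0565 and 0.0148 in fibroblasts, and 0.0130 and 0.0138 in satellite glia, and at 0 and 0.0468 in neutrophils, 0 in both libraries in B cells, 0.0152 and 0.0332 in erythroid cells, 0 in both libraries in non-myelinating Schwann cells, 0.00794 and 0.00929 in myelinating Schwann cells, and 0.0114 and 0.00756 in neurons. Ifi35 was at 2.25 and 2.18 in endothelial cells, 0.575 and 0.781 in B cells, 0.889 and 0.461 in non-myelinating Schwann cells, 0.594 and 0.494 in satellite glia, 0.674 and 0.485 in macrophages, 0.507 and 0.561 in mural cells, 0.466 and 0.428 in fibroblasts, and 0.368 and 0.509 in neurons, and at 0.162 and 0.187 in neutrophils, 0.122 and 0.144 in erythroid cells, and 0.177 and 0.214 in myelinating Schwann cells. Parp14, an ADP-ribosyltransferase, was at 1.59 and 2.79 in endothelial cells, 1.73 and 1.57 in non-myelinating Schwann cells, 2.00 and 0.662 in macrophages, 0.491 and 0.694 in satellite glia, 0.862 and 0.488 in B cells, and 0.756 and 0.187 in neutrophils, and at 0.358 and 0.423 in mural cells, 0.290 and 0.330 in fibroblasts, 0.0152 and 0.210 in erythroid cells, 0.0768 and 0.223 in myelinating Schwann cells, and 0.0194 and 0.0212 in neurons. Ifi27, a small mitochondrial protein, showed a different distribution, at 7.29 and 4.58 in satellite glia, 6.76 and 4.94 in non-myelinating Schwann cells, 4.09 and 4.86 in neurons, 3.88 and 4.35 in endothelial cells, and 3.85 and 2.88 in mural cells, and at 3.13 and 2.59 in fibroblasts, 2.80 and 2.87 in myelinating Schwann cells, 1.25 and 3.22 in B cells, 1.10 and 2.06 in macrophages, 1.35 and 1.96 in neutrophils, and 1.68 and 1.67 in erythroid cells. Its satellite glial values overlapped those of non-myelinating Schwann cells and of neurons. Cxcl10, the chemokine that attracts activated T cells through Cxcr3, was at 1.18 and 6.92 in satellite glia, 2.82 and 4.98 in non-myelinating Schwann cells, 4.34 and 2.23 in macrophages, 0.887 and 5.78 in endothelial cells, 0.507 and 5.77 in mural cells, and 2.30 and 4.01 in fibroblasts, and at 0.810 and 1.92 in neutrophils, 0.0958 and 0.195 in B cells, 0.0914 and 0.287 in erythroid cells, 0.196 and 0.650 in myelinating Schwann cells, and 0.0131 and 0.133 in neurons. Its order among classes changed from one library to the other. The remaining members, Xaf1, Samd9l and Ifit3b, were highest at 1.89 and 1.50 (endothelial cells), 2.11 and 1.03 (neutrophils) and 0.922 and 1.57 (endothelial cells).

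Comparisons between classes were tested with edgeR's quasi-likelihood test on UMIs summed per class and library, with library as a term and Benjamini-Hochberg adjustment over all 12543 genes tested. A gene passed at an adjusted p under 0.05. All 39 members entered this test. Since the choice of classes does not fix any member's direction, the share of all genes called in the same direction is given as the background.

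Endothelial cells stood above mural cells, the contractile cells of the same vessels, for nearly the whole list. Of 39 members, 36 were higher, 0 were lower and 3 did not pass, while 16.1% of all genes tested were higher. The median log2 fold of the members was 3.18, against 0.02 for all genes. With Oas1a and Oas2, which had no UMI in mural cells, set to the bound their counts allow, the median was 2.83. Oas3 had no UMI in either class and kept its fitted value. Rsad2 had a log2 fold of 7.02 ± 0.78 (SE derived from the test statistic, edgeR, adjusted p = 1.42e-07). Ifi44 was higher by 5.66 ± 0.41. Zbp1 had 338 UMIs in endothelial cells and 1 in mural cells, or 71.4 times the level there, where counting error allows 12.7 to 2828 times. Oas1a (83 UMIs) and Oas2 (34 UMIs) had none in mural cells and were at least 5.84-fold and 2.39-fold higher against a floor of 3 UMIs over both libraries. The members that did not pass were Cxcl10, Ifi27 and Oas3. Among the 81 measured genes of the pathway list, 54 were higher and 2 lower. All 10 genes of antigen presentation by MHC class I and 31 of 36 other interferon targets were higher, among them Slfn2, Tgtp1 and Ifi213, which had no UMI in mural cells and were at least 74.6-fold, 27.5-fold and 19.6-fold higher. Ifitm1 (log2 fold −4.92) and the receptor chain Ifngr2 (−1.41) were the genes lower in endothelial cells.

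Endothelial cells also exceeded satellite glia for nearly all members. Again 36 of 39 members were higher, 0 lower and 3 did not pass, against 25.9% of all genes higher and 51.7% called in either direction. The median log2 fold was 2.67, against −0.01 for all genes. Iigp1 was higher by 7.23 ± 0.77 on the log2 scale, with 252-fold and 133-fold ratios of levels in replicates 1 and 2. Ifi44 followed at 7.10 ± 0.32, Rsad2 at 7.05 ± 0.67, Oasl1 at 6.50 ± 0.54 and Irf7 at 6.22 ± 0.46. These 5 were named for the largest folds, so the lack of overlap of their values between the classes follows from that choice. Cxcl10, Ifi27 and Oas3 again did not pass. Of the pathway list, 63 of 81 were higher and 0 lower. The largest differences were for Phf11d, Ifi203, Mndal, Trim30a and Slfn5, with log2 folds between 8.10 and 8.29. Immediate early and stress genes moved in the same direction (5 of 8 higher), and their part in the result was not tested.

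**Figure D2:**
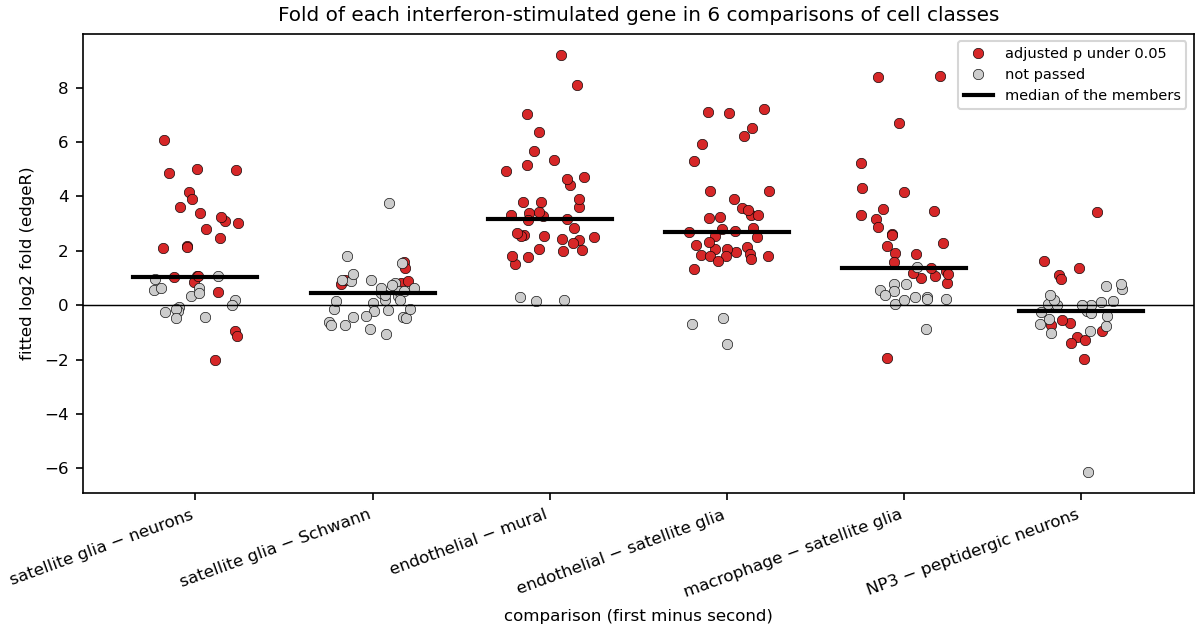
Points give the fitted log2 fold of each member (y axis) in 6 comparisons of cell classes (x axis), with red for an adjusted p under 0.05, grey for the others and a black bar for the median. The endothelial comparisons centre on 3.18 and 2.67, those of satellite glia with Schwann cells and of NP3 with peptidergic neurons on 0.44 and −0.22; a fitted fold for a gene with no UMI in one class is not a bound.

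Macrophages differed from satellite glia for many members, but the size rested on replicate 1. In the fit, 25 members were higher, 1 lower and 13 did not pass, against 22% of all genes higher and 45.6% called in either direction. The median log2 fold was 1.37, against −0.03 for all genes. With replicate 1 alone the members' median was 1.90, and with replicate 2 alone it was 0.25. Oas3 had 35 UMIs in macrophages and 1 in satellite glia, which is 549 times the level (92.3 to 22312 by counting error). Oas2 had 75 and 3, which is 392 times the level (129 to 1946). Oas1a was higher by 6.71 ± 0.83 on the log2 scale, Oasl1 by 5.24 ± 0.68 and Zbp1 by 4.32 ± 0.39. Ifi27 was lower, by −1.93 ± 0.34 (adjusted p = 5.09e-05). Of the members that passed, Cmpk2, Ifit2, Ifih1 and Parp14 had the opposite sign in replicate 2 alone, with log2 folds of −1.45, −0.32, −0.15 and −0.11. Of the pathway list 61 of 81 were higher and 2 lower (Tlr3 and Tap2). The 5 receptors tested were all higher, and Tlr7, Ifi204, Epsti1, Ifi209 and Slfn2 had the largest folds. Of the immediate early and stress genes 6 of 8 were higher too, whose part was not tested.

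The macrophage libraries themselves differed for most of these genes. Among the 38 members with at least 20 UMIs in macrophages over both libraries, 29 were at least 2-fold higher in replicate 1 and 0 in replicate 2. Over all 8510 genes with that many UMIs, 5.19% were 2-fold higher in replicate 1 and 7.53% in replicate 2. Rsad2 was at 2.12 and 0.141, Ifit3 at 2.47 and 0.115, Isg15 at 2.28 and 0.238 and Cmpk2 at 0.819 and 0.0353, so replicate 2 was the lower library for each. The neutrophils showed 10 of 14 members at least 2-fold higher in replicate 1 and the fibroblasts 12 of 33, against 8.51% and 2.74% of all genes. The 7 macrophage markers summed to 196 and 169, with all 7 found in both libraries. The stress gene Hspa1a moved with the difference, at 38.7 and 9.38 in macrophages, and its part in the result was not tested.

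Some members were higher in replicate 2 in endothelial, mural and myelinating Schwann cells. In endothelial cells 7 of 38 members were at least 2-fold higher in replicate 2 (Cxcl10, Ifit1, Ifit2, Ifi47, Gbp2, Irgm1 and Iigp1) and 0 in replicate 1, with 5.5% and 3.44% of all genes. In mural cells it was 8 of 28 members against 0, with 6.09% and 4.43% of all genes. In myelinating Schwann cells it was 10 of 28 against 1, with 6.11% and 4.08% of all genes. In satellite glia, 4 of 36 members (Cxcl10, Ifi47, Irgm1 and Iigp1) were at least 2-fold higher in replicate 2 and 5 (Ifit3, Bst2, Usp18, Xaf1 and Zbp1) in replicate 1, with 4.76% and 2.22% of all genes. Irgm1, Iigp1 and Cxcl10 were at least 2-fold higher in replicate 2 in endothelial, mural and satellite cells and in myelinating Schwann cells. Irf1, the transcription factor downstream of interferon gamma, moved with them, at 1.79 and 9.93 in endothelial cells, 1.71 and 6.45 in mural cells, 0.263 and 2.63 in satellite glia, and 1.05 and 1.05 in macrophages. The inhibitor Socs1 was at 0.337 and 2.74 in endothelial cells, 0.0439 and 0.422 in satellite glia, and 0.166 and 0.0706 in macrophages. The immediate early gene Fos was also higher in replicate 2 in satellite glia, at 4.70 and 34.4, and its part was not tested. No test was possible for a difference between libraries, since each is 1 sample of the same group.

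**Figure D3:**
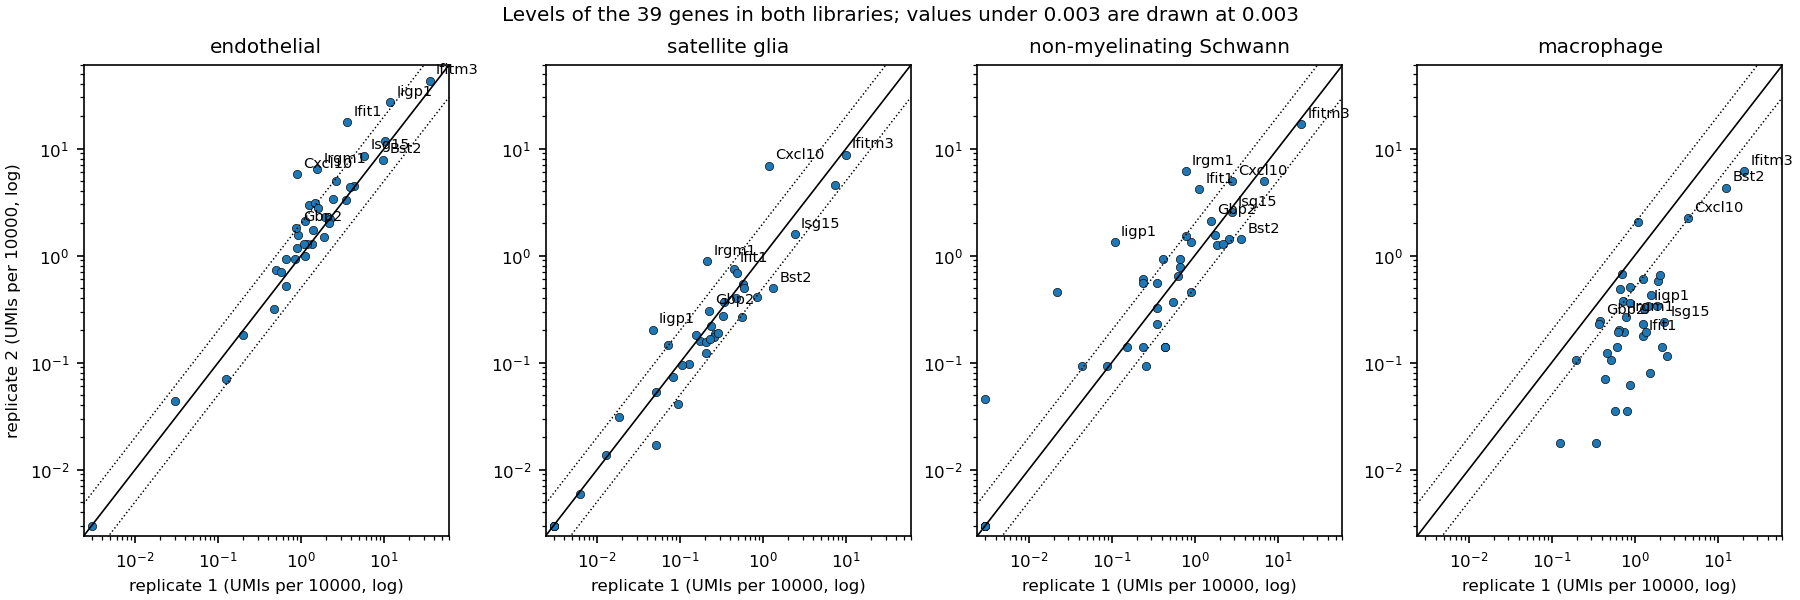
Each point is 1 of the 39 members, with its level (UMIs per 10000, log axes) in replicate 1 on the x axis and in replicate 2 on the y axis, in 4 cell classes; the solid line marks equal levels and the dotted lines 2-fold differences. Nearly all macrophage points lie below the line, while Cxcl10, Irgm1 and Iigp1 lie above the upper dotted line in endothelial cells and satellite glia.

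Satellite glia differed from neurons for a share of members close to that of all genes, 66.6% of which were called in either direction, and most of the members called were higher in satellite glia. Of 39 members, 21 were higher, 3 lower and 15 did not pass, while 32.5% of all genes were higher and 34.1% lower. The median log2 fold was 1.02, against −0.04 for all genes. Cxcl10 was higher in satellite glia by 6.06 ± 0.72 (adjusted p = 1.06e-07). Parp14 was higher by 5.00 ± 0.42, Isg15 by 4.96 ± 0.59, Ifitm3 by 4.87 ± 0.50 and Gbp2 by 4.15 ± 0.33. Oasl2 was lower in satellite glia by −1.13 ± 0.38 and Cmpk2 by −0.94 ± 0.39. Oas1a, with 4 UMIs in satellite glia and 76 in neurons, was lower by −2.02 ± 0.84 (adjusted p = 0.0435). None of the 3 lower calls held with DESeq2 or without the replicate block. Ifit1, Irf7, Stat2, Trim25 and Eif2ak2 were among those that did not pass, with fitted log2 folds from −0.44 to 0.01. Of the pathway list 41 of 81 were higher and 14 lower, led by Uba7, the activating enzyme of Isg15 (5.30), and Tlr3, a sensor of double-stranded RNA (5.01). Isg20 (−3.76), Phf11b, Sting1 (−3.17), Irf5 and Lgals9 were the lowest. Of the 10 MHC class I genes, 8 were higher in satellite glia and 0 lower, and 7 of 8 immediate early and stress genes were higher too, whose part was not tested.

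Few members passed when satellite glia, the glia of cell bodies, were set against Schwann cells, the glia of axons, taken as a mean. Against the mean of both Schwann classes, 6 of 39 members were higher, 0 lower and 33 did not pass, and 13.3% of all genes were higher and 9.55% lower (22.8% in either direction), so the share of members was near the background. Ifitm3 was higher than that mean by 1.35 ± 0.36 on the log2 scale (edgeR, adjusted p = 0.00735) and Ifi35 by 0.80 ± 0.20. Cxcl10 was higher by 1.58 ± 0.52, with values that overlapped. Samd9l was higher by 0.87 ± 0.28, Ifih1 by 0.92 ± 0.32 and Ifi27 by 0.78 ± 0.27. Against non-myelinating Schwann cells alone, Ifitm3 and Ifih1 were lower in satellite glia in both libraries. Cxcl10, Ifi35 and Ifi27 were lower than in that class in a single library. With DESeq2 or without the replicate block 2 members passed, and without a filter on low counts 13 did. The Schwann classes themselves were far apart, with summed levels of 55.7 and 60.5 in non-myelinating and 7.73 and 12.1 in myelinating cells. Satellite glia lay between them in both libraries, so the mean of both describes neither class. Of the pathway list 10 of 81 were higher and 7 lower. Mavs (2.11) was higher, with ratios to the pooled Schwann cells of 1.54 and 7.23 in replicates 1 and 2. Tlr3 (2.11), Lgals3bp (1.87), Tap2 (1.81) and Psmb8 (1.68) were higher too. Of the immediate early and stress genes 5 of 8 were lower, among them Atf3 (−3.10), Fosb (−2.99) and Fos (−1.72).

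Among sensory neurons, levels were low and differed by type. Sums of the 39 members were 14.1 and 13.4 in peptidergic neurons, 13.3 and 12.2 in NP3 neurons (the non-peptidergic type that carries natriuretic peptide B and somatostatin), 10.8 and 9.54 in NP2, 9.15 and 7.96 in NP1, 5.35 and 6.52 in neurofilament-rich NF and 5.77 and 5.17 in TH neurons. Ifi27 gave much of these sums, at 7.05 and 7.33 in NP3 neurons, 5.80 and 7.20 in peptidergic neurons, 5.28 and 6.18 in NP2 neurons, 3.67 and 3.99 in NP1 neurons, 2.92 and 3.43 in NF neurons, and 2.17 and 2.35 in TH neurons. Ifit1 was at 1.43 and 0.917 in NP1 neurons, 1.08 and 0.622 in peptidergic neurons, 0.969 and 0.204 in NP2 neurons, 0.756 and 0.402 in NP3 neurons, 0.197 and 0.170 in NF neurons, and 0.255 and 0.160 in TH neurons, lowest in TH and NF neurons in both libraries. NP2 and NP3 neurons are the itch-related types, but NP2 had 19 cells in replicate 1 and was left out of the test, which compares 32 and 32 NP3 neurons with 98 and 176 peptidergic neurons. Of the 34 members tested, 5 were higher in NP3 neurons, 8 lower and 21 did not pass. Of 13110 genes, 12.6% were higher and 15.9% lower (28.5% in either direction). The share of members higher was thus near the background, and the share lower was somewhat above it. The median log2 fold was −0.22, against −0.01 for all genes.

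Irf7 was lower in NP3 than in peptidergic neurons, at 0.0336 and 0.0310 against 0.123 and 0.118, by −1.98 ± 0.41 on the log2 scale (edgeR, adjusted p = 0.00133). Bst2 was at 0.479 and 0.397 against 1.15 and 0.784, with a log2 fold of −1.16 ± 0.16. Igtp (−1.27 ± 0.23), Ifi35 (−0.94 ± 0.20) and Gbp3 (−1.40 ± 0.46) were also lower. Trim25 was higher in NP3 neurons by 0.95 ± 0.24 and Ifit3 by 1.12 ± 0.36. Ifit3b was higher by 1.64 ± 0.42 with 31 and 36 UMIs, and Cxcl10 by 1.36 ± 0.44 with 37 and 62 UMIs and values that overlapped. Oas1a had 8 UMIs in NP3 and 2 in peptidergic neurons, which is 14.2 times the level (2.83 to 137 by counting error). With DESeq2, 2 members were higher and 6 lower, and without the replicate block 2 and 4. Of the pathway list, 4 of 62 were higher and 11 lower in NP3 neurons. The receptor kinase Jak1 stood out, higher by 4.21 ± 0.18, while Ifitm2 (−2.78), Socs1 (−2.10) and B2m (−1.88) were lower. The 5 satellite glia markers summed to 3.62 and 2.09 in NP3 and 3.38 and 2.33 in peptidergic neurons. The 7 endothelial markers summed to 0.427 and 0.232 in NP3 and 0.787 and 0.959 in peptidergic neurons, so they were lower where Irf7, Bst2 and Igtp were lower, and their part in these results was not tested.

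How single cells carried the genes was read from 10 core type I targets (Ifit1, Ifit2, Ifit3, Ifit3b, Isg15, Rsad2, Usp18, Oasl2, Cmpk2 and Rtp4). Each cell was thinned to 2000 UMIs, since depth sets how many genes are seen, and shallower cells were left out. The share of cells with at least 3 core genes is a range of a score, not a cell type, and its exact Clopper-Pearson 95% interval covers counting error only. In endothelial cells the share was 68.7% (63.2 to 73.8; 215 of 313 cells) in replicate 1 and 75.4% (71.8 to 78.7; 480 of 637) in replicate 2. These intervals overlapped. At 1000 UMIs the shares were 34.9% (29.7 to 40.4) and 51.8% (47.9 to 55.6), and with at least 4 core genes 45.4% (39.8 to 51.1) and 62.3% (58.4 to 66.1), with intervals that did not overlap. In macrophages it was 29.0% (22.5 to 36.1; 53 of 183) in replicate 1 and 0.784% (0.095 to 2.80; 2 of 255) in replicate 2, with intervals far apart. Neutrophils had 22.5% and 5.08%, and non-myelinating Schwann cells 17.8% and 16.1%. Satellite glia had 5.60% (4.62 to 6.72; 109 of 1946) and 3.00% (2.30 to 3.85; 60 of 2000), with intervals that did not overlap. Fibroblasts had 5.69% and 3.38%, mural cells 4.69% and 4.02%, erythroid cells 7.69% and 3.28%, and myelinating Schwann cells 0.621% and 1.59%. Neurons had 1.05% and 0.69% after thinning but 80.8% and 55.9% before it, at their far greater depth. No B cell passed (0 of 34 in each library, which allows a share of up to 8.82%).

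**Figure D4:**
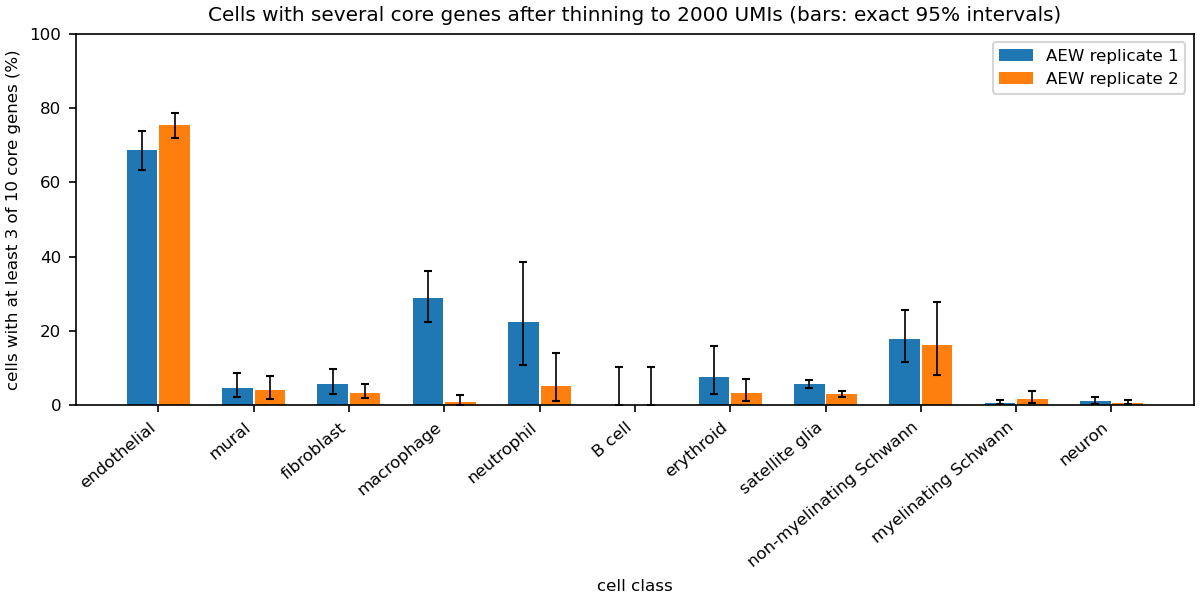
Bars give the share of cells (y axis, percent) with at least 3 of 10 core genes after thinning to 2000 UMIs, by class (x axis) and library (colour), with exact 95% binomial intervals. Endothelial cells stand at 68.7% and 75.4%, macrophages at 29.0% in replicate 1 and 0.784% in replicate 2.

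The satellite glia with several core genes also held more of the other members, which were not used to choose them. Iigp1 was at 0.423 against 0.0256 in replicate 1 and 1.62 against 0.158 in replicate 2, in cells with at least 3 core genes against the other satellite glia. Cxcl10 was at 5.74 against 0.929 in replicate 1 and 23.4 against 6.40 in replicate 2. Irf7 was at 0.306 against 0.0364 in replicate 1 and 0.256 against 0.0463 in replicate 2. Gbp2 was at 0.634 against 0.198 in replicate 1 and 2.59 against 0.234 in replicate 2. In each case both libraries went the same way. Of the 20 non-core members with at least 100 UMIs in satellite glia of each library, 17 were at least 2-fold higher in these cells in both libraries, against 0.37% of 9198 genes. The exceptions were Ifi27 (ratios of 1.12 and 1.15), Ifi35 (1.44 and 2.15) and Ifitm3 (1.86 and 1.92). Of the 49 pathway genes with at least 100 UMIs in each library, 9 were at least 2-fold higher in both libraries. These included 4 of 12 other interferon targets and 2 of 9 MHC class I genes, so most did not reach 2-fold. The RNA sensor gene Ddx58 was raised 3.72 and 3.38 fold, Irgm2 3.42 and 4.49 fold and Psmb8 2.16 and 2.50 fold. The receptor chains Ifnar1 (1.18 and 0.731), Ifnar2 (1.01 and 0.944) and Ifngr1 (0.913 and 1.03) stayed within 1.5-fold, and 0 of 8 immediate early and stress genes reached 2-fold in both libraries.

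Cell type markers and depth were compared between the satellite glia with several core genes and the others, with ratios from 0.610 to 1.46 for the 14 summed marker lists that had at least 100 UMIs in satellite glia of each library. The other 8 lists had fewer UMIs in at least 1 library, and among them the TH neuron markers were at 0.0739 against 0.0346 in replicate 1 and 0.150 against 0.169 in replicate 2. Satellite glia markers summed to 184 against 196 in replicate 1 and 186 against 191 in replicate 2. Endothelial markers summed to 0.148 against 0.161, and to 0.598 against 0.41. Macrophage markers were at 0.0106 against 0.0477 in replicate 1 and 0.128 against 0.0775 in replicate 2. Median depth was 7977 against 8511 UMIs, and 7493.5 against 7352. No gene outside the lists was at least 4-fold higher in both libraries with at least 20 UMIs. In endothelial cells the same split gave smaller ratios. There 1 of 25 other members was at least 2-fold higher in both libraries, against 2 of 5380 genes outside the core (0.0372%). In replicate 1 it was 2 of the 25 members, against 5 of the 5380 genes. In replicate 2 it was 12 members, against 49 genes.

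**Figure D5:**
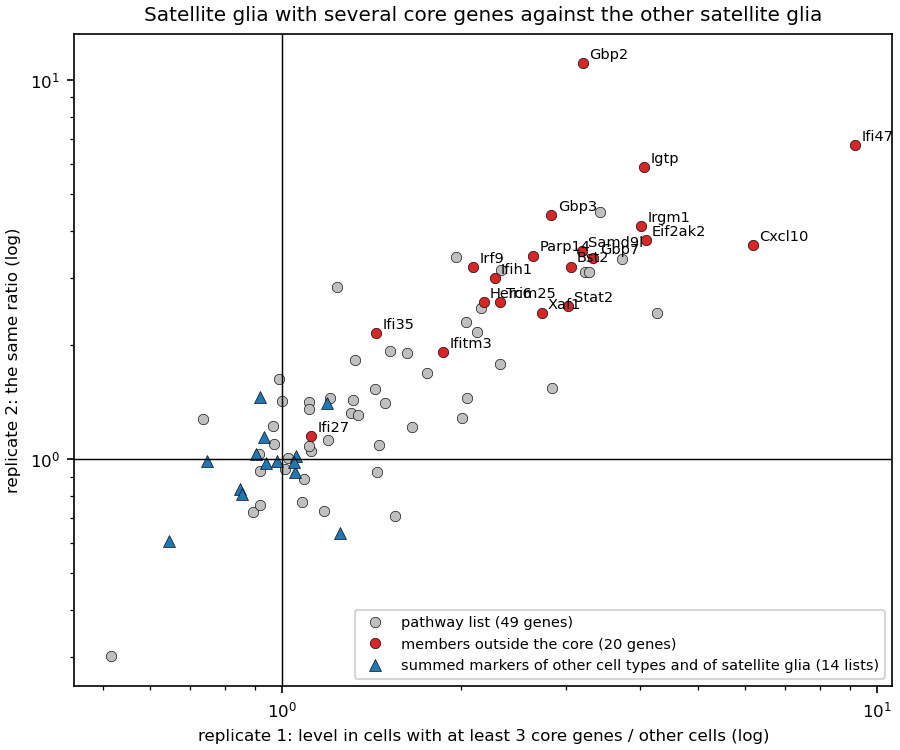
Each point is the ratio of a level in satellite glia with at least 3 core genes to that in the other satellite glia, in replicate 1 (x axis) and replicate 2 (y axis), both log, for non-core members (red), pathway genes (grey) and summed cell type markers (blue), all with at least 100 UMIs in satellite glia of each library. The members lie toward the upper right, with 9.18 and 6.73 for Ifi47 and 3.20 and 11.0 for Gbp2, while the marker sums lie around 1.

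Few transcripts of the interferons themselves were captured. Ifng had 16 UMIs in 9 cells of replicate 1 and 32 UMIs in 15 cells of replicate 2. Of these, 7 and 7 UMIs were in cells with T or NK cell markers, of which there were 4 and 15, and 8 and 22 in unassigned cells. Ifnb1 had 1 and 2 UMIs and Ifnk 4 and 0. No UMI was found for Ifna1, Ifna2, Ifna4, Ifna5, Ifne, Ifnl2 or Ifnl3, which allows a share of cells with a UMI of up to 0.0386% and 0.0292%. The receptor chains were read in all the main classes, with Ifnar1 at 1.53 and 0.841 in endothelial cells, 0.922 and 0.767 in macrophages, 0.254 and 0.232 in satellite glia, and 0.223 and 0.212 in neurons, and Ifngr1 at 2.73 and 2.84 in macrophages, 0.745 and 0.631 in endothelial cells, 0.621 and 0.579 in satellite glia, and 0.103 and 0.115 in neurons.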

How the data were processed

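Single-cell RNA was measured in 2 droplet libraries of 1 group, with 8818 and 11767 deposited barcodes and 113251556 and 102347251 UMIs. The deposited values were whole-number UMI counts per gene and barcode, not normalized; per the submitters' processing notes, CASAVA 1.8, Cell Ranger 5.0.1 and the mouse build mm10 were used, and the order and settings of those steps are not given in the sources read. Cells with at least 500 genes and at most 20% mitochondrial UMIs were kept (8329 and 11290). The automatic doublet threshold of scrublet (scanpy 1.11.5) marked 1 and 0 cells and so had not worked; the 555 and 1020 cells with the highest scores (0.8% per 1000 cells) were removed instead.

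Cells were assigned to a class by scores over marker genes, with at least 2 markers found and a second-best score under 0.5 of the best. The requirement of 8 neuron markers was set after the data were seen. No cluster was computed, and 39.6% and 47.7% of cells stayed unassigned. UMIs were summed per class and library where both had at least 20 cells. edgeR 4.0.16 (R 4.3.3; TMM factors, filterByExpr, quasi-likelihood test) fitted class and library to 22 sums of 11 classes (12543 genes, 10 residual degrees of freedom), and separately to 10 sums of 5 neuron types (13110 genes, 4 degrees of freedom). P-values were Benjamini-Hochberg adjusted over all genes. The test gives no SE, so values after ± are the absolute log2 fold divided by the square root of the F statistic. The library term was kept because classes of 1 library were captured together. In simulated counts for satellite glia against neurons (11513 genes), 84% of 2-fold and 100% of 4-fold changes were recovered, with 5 false calls among 189. The simulation gave all genes the same spread and changed only genes above a set level. Its rates therefore do not carry over to rarer members or to those that vary more.

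Intervals and the limit of 3 counts allowed by a count of 0 cover counting error only. Members and gene lists were chosen with earlier results of these data known. Members with at least 0.5 UMIs per 10000 in a class in both libraries, up to 20, were given in every class, and up to 5 members and 5 pathway genes per direction were named in each comparison, by fold. DESeq2 1.42.0, other scalings, filters, gates and thinning depths were alternatives. Promoters came from RefSeq (GRCm38.p6). Mx1 and Mx2 were not analysed here.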

Additional observations from a re-analysis of the deposited data

How the results depend on the processing

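The number of members called under the alternatives tried was 33 to 37 in the endothelial comparisons, 18 to 26 for satellite glia against neurons, and 22 to 28 for macrophages against satellite glia. For satellite glia against Schwann cells, 2 members were called with DESeq2, 2 without the replicate block and 13 without a filter on low counts, in place of 6. For NP3 against peptidergic neurons, DESeq2 called 8 and the fit without the replicate block 6, in place of 13; the causes were not tested. The block is the library, since classes of 1 library share its cells. The strict gate left too few cells for the mural, Schwann and neuron-type comparisons, which could not be fitted. Only members that passed in the main fit of a comparison were followed here. Of their results, 877 stayed the same under settings that kept both libraries, 55 no longer passed and 0 reversed. Each library alone gives values with no test. A value counted as the same if its distance from the full fit was under the standard deviation of the 2 single-library values. The full fit usually lies between those values, so this rule favours that label and does not measure agreement between libraries. By it, 224 were the same, 54 moved and 4 reversed. Those 4 were in macrophages against satellite glia, with log2 folds without replicate 1 and without replicate 2 of −1.45 and 2.92 for Cmpk2, −0.32 and 3.52 for Ifit2, −0.15 and 1.41 for Ifih1, and −0.11 and 1.98 for Parp14.

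The mean share of endothelial cells with at least 3 core genes was 72.0%. It was 84.3% with at least 2 core genes, 53.8% with at least 4, 43.3% at 1000 UMIs and 88.4% at 4000 UMIs, and 68.7% to 75.4% in single libraries. In satellite glia the share was 4.30%, and 13.2%, 1.66%, 1.69% and 11.0% under the same changes, with 3.00% to 5.60% in single libraries. The macrophage mean of 14.9% ranged from 0.784% to 29.0% between libraries. Of the other members raised in endothelial cells with at least 3 core genes, 1 was raised in both libraries, and 2 to 12 in single libraries; in satellite glia it was 17, and 17 to 18. Depth limits rare genes: Oas1a, Oas2 and Oas3 rest on few UMIs in most classes. Low levels of any member in B cells, neutrophils and non-myelinating Schwann cells rest on few UMIs too.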
